A study of Homo sapiens with 2 samples.

Results

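The genes described here encode 32 proteins that mature U6 small nuclear RNA (U6 snRNA) and carry it into the U4/U6.U5 tri-snRNP, the largest preformed building block of the spliceosome. They were taken by name from 57894 genes with a row in the deposited tables, by their known role, and all 32 were among the 18484 genes tested. Total RNA was sequenced from HEK293 cells, an established human embryonic kidney line, as 2 libraries of the parental line and 2 libraries of a line in which LARP7 was knocked out. The knockout libraries come from clone 1-11 alone, so LARP7 loss and other features of that clone cannot be told apart. The labels name no treatment and give both lines the same culture conditions; 1 label field calls the knockout sample wildtype, and its title and genotype field, which call it a knockout, were used. The labels do not say that replicate libraries were grown as separate cultures. The p-values therefore reflect the scatter between libraries only, which can be technical.

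U6 is the RNA at the catalytic centre of the spliceosome. It is made by RNA polymerase III, trimmed and modified at its 3′ end, bound there by a ring of LSM proteins, paired with U4 RNA by the chaperone SART3, and joined to the U5 particle before it enters splicing. LARP7 binds the 3′ end of small RNAs made by polymerase III. It is known for stabilising 7SK RNA and for guiding the methylation of U6. The values below are of the messenger RNAs of U6's protein partners. Protein levels and the assembly of the particles were not measured.

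U6 RNA itself could not be followed in these libraries. The 5 named U6 genes (RNU6-1, RNU6-2, RNU6-7, RNU6-8 and RNU6-9) together held 17.9 and 25.2 estimated reads in parental libraries 1 and 2 and 31.8 and 12.4 in knockout libraries 1 and 2, with the groups overlapping. All 1276 annotated U6 copies, of which 43 had any read, held 63 and 95 reads against 107 and 107. For comparison, the U4 genes RNU4-1 and RNU4-2, whose transcripts are 141 bases, held 15191 and 24892 reads against 8623 and 11985. Near-identical U6 copies share reads, and so few were counted that no level of U6 is given.

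The libraries held between 12851942 and 18483220 estimated reads, and the members between 98 reads (TUT1) and 18317 reads (PRPF8) per library. Parental library 2 was the shallowest and stood apart from parental library 1, the counts of that pair differing by 30.67 chi-square units per degree of freedom (17812 genes), against 8.74 (18108 genes) for the 2 knockout libraries. Both knockout libraries had longer fragments (232.9 and 225.8 bases against 217 and 206.7). They also had a smaller share of reads from small RNA genes (0.831 and 0.977% against 1.41 and 2.36%). The part of either difference in the results was not tested. LARP7 stood at 59.8 and 46.5 CPM (normalised read count, scaled for library size with TMM factors) in parental cells and at 36.1 and 31.9 CPM in the knockout, lower in both knockout libraries, with a log2 change of -0.65 (SE 0.16) that missed the threshold (edgeR adjusted p = 0.135; DESeq2 adjusted p = 0.045, past it). Of the embryonic kidney markers, 7 of 8 were detected well enough to be tested, their summed level ranged from 232 to 236 CPM in parental and 250 to 259 CPM in knockout libraries, and PAX8 had no read in 3 libraries. Of 10 markers of other cell types, 3 (VIM, KRT18 and EPCAM) passed the count filter, PECAM1 was at 0 in every library, and VIM made up most of a summed level of 407 to 464 CPM in parental and 527 to 541 CPM in knockout libraries.

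No gene of the U6 and tri-snRNP set passed the test between knockout and parental cells. At an adjusted p under 0.05 (edgeR quasi-likelihood test with Benjamini-Hochberg adjustment) 0 of 32 members were called, where 154 of all 18484 genes (0.833%) were called, 61 higher and 93 lower. DESeq2 also called 0 members, beside 459 of 16692 genes with an adjusted p, and limma voom 0 members, beside 150 of 18484 genes. At an unadjusted p under 0.05, edgeR, DESeq2 and limma voom each found 1 member (3.12%), against 14.3% of all genes with edgeR. Members' log2 changes, knockout minus parental, ran from -0.30 (PPIH) to 0.42 (PRPF4) with a median of -0.06, against a median of 0.002 over all genes; 14 members had a positive and 18 a negative value, and with library size alone as the scaling the median was 0.03, with that of all genes at 0.10. That scaling also turned the balance of signs, to 20 positive and 12 negative members and to 106 genes called higher and 82 lower. The values that follow use the TMM scaling.

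The precision of these libraries bounds the changes. The 95% intervals of the members' changes reached down to -0.79 on the log2 scale (0.577-fold, PPIH) and up to 0.81 (1.75-fold, PRPF4), so that no member's interval included a 2-fold change either way. The median interval extended 0.36 to either side on the log2 scale, and changes smaller than this could not be told from 0 for a typical member. A log2 change of at least 0.4 either way was found in 1 of 32 members, against 32.3% of all genes and 14.5% of the 9598 protein-coding genes within the members' range of level. Of those 9598 genes, 0.781% passed the adjusted and 16.4% the unadjusted threshold.

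**Figure D1:**
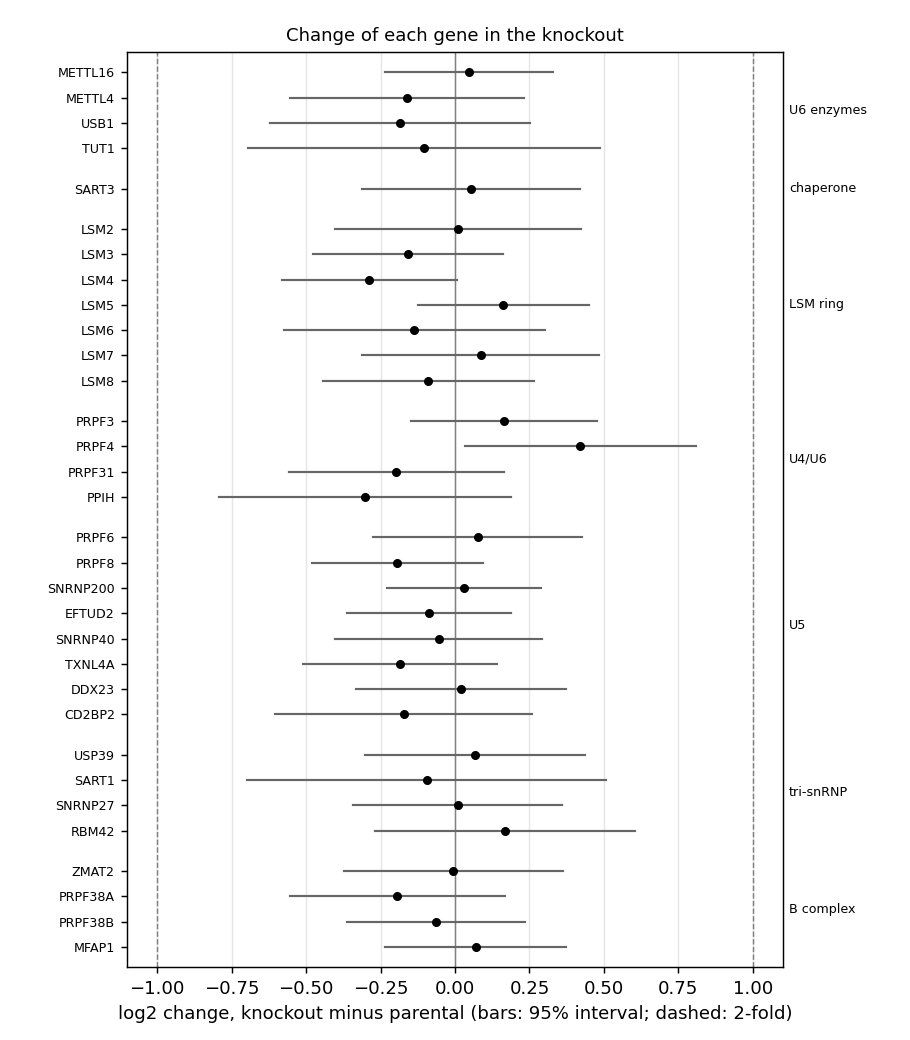
Log2 change of each of the 32 genes (horizontal axis, knockout minus parental, edgeR) with its 95% interval as a bar, grouped by role; dashed lines mark a 2-fold change. All bars lie between -0.79 and 0.81, and PRPF4 alone has a bar that leaves out 0.

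The knockout and parental libraries did not overlap for 9 of 32 members (28.1%), against 46.3% of all genes tested and 48.8% of protein-coding genes of like level. LSM5, PRPF3, PRPF4 and MFAP1 were higher in both knockout libraries (23.5% of all genes were), and METTL4, LSM4, LSM6, PRPF31 and TXNL4A were lower in both (22.7% of all genes were). Overlap was judged in CPM and depends on that scale. In levels per transcript length METTL4, LSM6, PRPF31 and TXNL4A overlapped between the lines. Of the members that overlapped in CPM, METTL16, LSM2, LSM7, SART3, PRPF6, SNRNP200 and ZMAT2 were higher per length in both knockout libraries. PRPF8 alone was lower per length in both. Per length (TPM over protein-coding genes), the 32 members summed to 2389 and 2209 in parental and 2493 and 2431 in knockout libraries. In CPM the same sum was 3318 and 2828 against 3068 and 2788, with the groups overlapping. The share of all genes without overlap per length was not computed. The distance between single libraries of a line can be set beside the change between groups, but the measures are unlike. The change between groups draws on 2 libraries of each line and so varies less than a distance between single libraries. The median distance between parental libraries 1 and 2 was 0.30 on the log2 scale and that between the knockout libraries 0.12, while the median size of the change between groups was 0.10. In 28 of 32 members (87.5%) parental library 1 was above parental library 2, against 61.0% of the protein-coding genes of like level, and in 25 of 32 members (78.1%, against 57.0%) the change between groups was smaller than this parental gap.

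**Figure D2:**
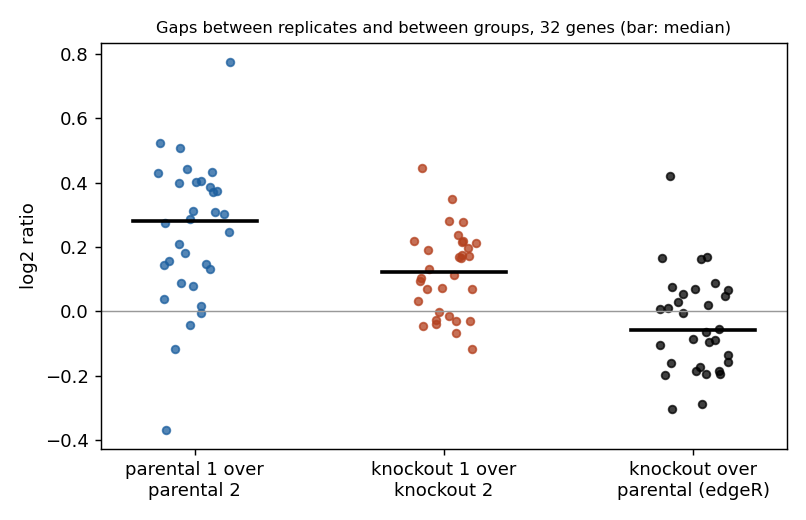
Log2 ratio of parental library 1 to 2, of knockout library 1 to 2, and the edgeR log2 change of knockout over parental, 1 point per gene for the 32 genes (horizontal jitter only), with bars at the medians. The parental pair lies above 0 for 28 of 32 genes. The change between groups, which draws on all 4 libraries and so varies less, has a median of -0.06.

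None of the 4 enzymes that modify and trim small nuclear RNA passed the test, and their median log2 change was -0.13. METTL16, which methylates an adenosine of U6 that meets the 5′ splice site, stood at 76.5 and 69.2 CPM in parental cells and at 74.6 and 76.1 CPM in the knockout, a log2 change of 0.05 with the groups overlapping. USB1, the exonuclease that trims the U6 tail and leaves a cyclic phosphate, stood at 53.7 and 41.4 CPM against 48.4 and 35.5 CPM, so that each group held 1 high and 1 low library. TUT1, which adds uridines to the 3′ end of U6, had the fewest reads of the set, at 10.6 and 7.78 CPM against 9.28 and 7.87 CPM. Its exons overlap 1648 bases of AP002990.1 on the same strand, which held 69 to 163 reads, so the value of TUT1 is uncertain. METTL4, a methyltransferase whose known small nuclear RNA target is U2 rather than U6, stood at 22.8 and 24.7 CPM in parental cells and 22.8 and 19.6 CPM in the knockout. Its groups touched, with knockout library 1 at 22.76 CPM just below parental library 1 at 22.79 CPM, and its log2 change was -0.16. SART3, which anneals U6 to U4, stood at 86.7 and 65.6 CPM against 84.6 and 73.7 CPM, the parental library 2 being the lowest and library 1 the highest.

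METTL16 also has a messenger RNA target, MAT2A, which encodes the enzyme that makes S-adenosylmethionine. METTL16 binds hairpins of MAT2A and in the textbook account promotes splicing of its last intron. The 9 letters TACAGAGAA, searched on the transcript strand, occur 5 times in the MAT2A-201 transcript (2819 bases), each time after the stop codon. Of 12798 protein-coding transcripts within 20% of that length, 332 (2.59%) held the same letters. The 5 matches are printed with 10 bases on either side, 5′ to 3′, with the matching letters in capitals, to show the stretches that METTL16 is known to read; all lie on the plus strand of chromosome 2 (GRCh38).

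chr2:85543802-85543830: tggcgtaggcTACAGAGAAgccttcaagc
chr2:85544589-85544617: tgtgatgtcaTACAGAGAAgtcacagggc
chr2:85544774-85544802: ctggtgtagcTACAGAGAAaccagcttcc
chr2:85544889-85544917: atggcgtaagTACAGAGAAgccatcacct
chr2:85545112-85545140: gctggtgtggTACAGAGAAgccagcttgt

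MAT2A stood at 377 and 295 CPM in parental cells (336 ± 57.4, SD, n = 2) and at 361 and 321 CPM in the knockout (341 ± 28.2, SD, n = 2). Both knockout libraries lay between the parental libraries, and the log2 change was 0.02 (SE 0.14, edgeR adjusted p = 0.972). Its retained-intron transcripts held 13.97 and 17.3% of the gene's TPM (a level per transcript length, scaled to a fixed total) in parental cells against 13.3 and 15.1% in the knockout, again with overlap. No difference in the level of MAT2A or in the share of its annotated retained-intron transcripts was detected between the lines. Which intron these transcripts keep was not examined, so retention of the last intron was not measured.

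The LSM2 to LSM8 ring, which protects the 3′ end of U6 and helps it pair with U4, had 3 positive and 4 negative log2 changes with a median of -0.09. LSM4 had the second smallest p of all members. It stood at 64.4 and 66.4 CPM in parental cells (65.4 ± 1.41, SD, n = 2) and at 56.8 and 50.3 CPM in the knockout (53.6 ± 4.55, SD, n = 2), below both parental libraries in each knockout library. Its log2 change of -0.29 (SE 0.13; 95% interval -0.58 to 0.01) stayed short of the threshold (edgeR adjusted p = 0.362). LSM4 lies at chr19:18306230-18323274 on the minus strand (GRCh38).

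The other subunits of the ring went in both directions. LSM5 stood at 72.8 and 69.0 CPM in parental cells against 83.9 and 74.9 CPM in the knockout (log2 change 0.16). LSM6 stood at 15.9 and 14.3 CPM against 13.5 and 13.96 CPM (-0.14), a gap of less than 1 CPM between the nearest libraries. LSM8, the subunit that sets the nuclear ring apart from the cytoplasmic LSM1 to LSM7 ring, stood at 45.2 and 58.4 CPM against 47.4 and 49.7 CPM, both knockout libraries lying between the parental ones. LSM2, between 15.9 and 17.2 CPM over the 4 libraries (log2 change 0.01), LSM3, between 58.6 and 74.9 CPM (-0.16), and LSM7, between 33.2 and 44.8 CPM (0.09), also overlapped between groups. Read counts of LSM3 could include reads of XPC, whose exons overlap 318 bases of it on the opposite strand and which stood at 37.7 and 43.7 CPM in parental cells and 24.6 and 25.6 CPM in the knockout (log2 change -0.70, edgeR adjusted p = 0.0928); how the authors' counting treated strand is not given in the sources used here.

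Although the ring holds 1 copy of each subunit, its messenger RNAs differed in level. To compare genes per length, TPM was rescaled so that protein-coding genes had the same total in each library. LSM7 was highest of the ring in every library, at 218 and 167 TPM in parental and 247 and 227 TPM in knockout cells, and LSM3 was lowest, at 32.02 and 28.3 against 30.6 and 29.4 TPM. The ratio of highest to lowest was 6.82 and 5.91 in parental and 8.08 and 7.73 in knockout cells. LSM4 (128 to 144 TPM over the 4 libraries) and LSM5 (121 to 147 TPM) overlapped each other and lay well above LSM2, LSM6 and LSM8, which overlapped one another between 38.4 and 51.9 TPM. The summed level of the 7 subunits was 632 and 598 TPM in parental and 697 and 658 TPM in knockout cells. In CPM, which is not per length, the same sum was 334 and 320 against 327 and 302, with the groups overlapping.

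**Figure D3:**
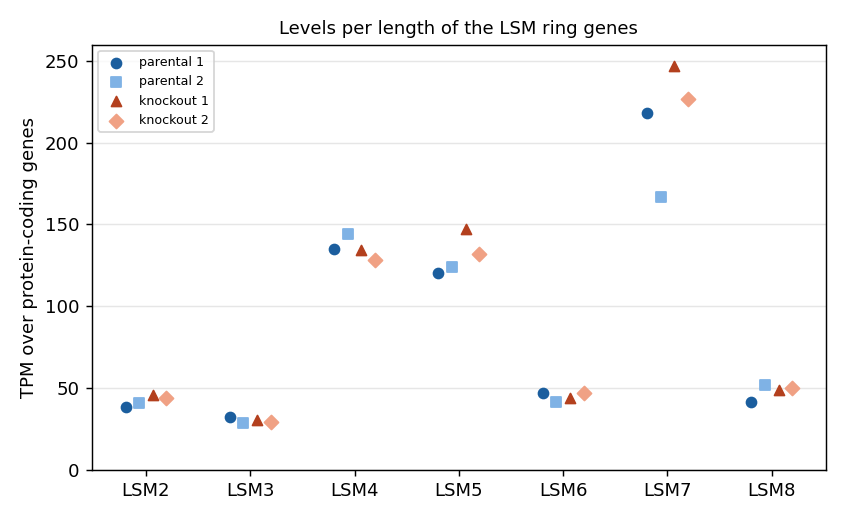
Level per length of LSM2 to LSM8 in the 4 libraries (vertical axis, TPM rescaled to the same total over protein-coding genes, from 0). LSM7 is highest and LSM3 lowest in every library, and the spread between subunits exceeds the spread between libraries.

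Among the proteins of the U4/U6 particle, PRPF4 had the largest change and the smallest p of the 32. PRPF4 is a WD-repeat protein that binds U4/U6 together with PRPF3 and the cyclophilin PPIH. It stood at 57.3 and 43.3 CPM in parental cells (50.3 ± 9.94, SD, n = 2) and at 73.9 and 61.1 CPM in the knockout (67.5 ± 9.11, SD, n = 2), so that the lower knockout library lay just above the higher parental library. Its log2 change was 0.42 (SE 0.17; 95% interval 0.03 to 0.81), with an unadjusted p = 0.0363 and an adjusted p = 0.312 in the edgeR fit. Without parental library 1 the change was 0.63. Without parental library 2, knockout library 1 or knockout library 2 it was 0.24, 0.28 and 0.55. Each of these fits left a single library in 1 line, so their p-values are not given here. PRPF4 lies at chr9:113275343-113292905 on the plus strand (GRCh38) and its exons overlap 208 bases of CDC26 on the opposite strand, which stood at 21.6 and 16.4 CPM in parental cells and 23.99 and 15.1 CPM in the knockout.

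The partners of PRPF4 had smaller values or the opposite sign, and the difference between members was not tested. PRPF3 stood at 71.3 and 58.4 CPM in parental cells and at 72.7 and 72.8 CPM in the knockout (log2 change 0.16), with the nearest libraries less than 2 CPM apart. PPIH stood at 22.9 and 16.1 CPM in parental cells (19.5 ± 4.80, SD, n = 2) and at 15.2 and 16.5 CPM in the knockout (15.9 ± 0.901, SD, n = 2). Its change of -0.30 (SE 0.22, edgeR adjusted p = 0.576) went with a high parental library 1, above the other 3 libraries, which overlapped. PPIH lies at chr1:42658425-42676758 on the plus strand, and a pseudogene copy held 18 to 35 reads per library beside 203 to 403 for the gene. PRPF31, which binds the kink-turn of U4 and is mutated in a form of retinitis pigmentosa, stood at 32.8 and 28.4 CPM against 26.5 and 27.04 CPM (log2 change -0.20). The exons of PRPF31 overlap 266 bases of TFPT and 589 bases of AC245052.4 on the opposite strand. Per length, PRPF4 was at 0.496 and 0.427 of PRPF3 in parental and at 0.622 and 0.496 in knockout libraries, and the ratio was the same to 3 digits in parental library 1 and knockout library 2.

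Within PRPF4, the share of 1 transcript was higher in both knockout libraries. PRPF4-201 held 38.3 and 37.5% of its gene's TPM in the parental line and 51.2 and 48.5% in the knockout, or 371 and 203 reads against 615 and 475. The remainder was mainly PRPF4-202. The 2 differ at the start of the second exon, where acceptor sites 3 bases apart are used (113276545 and 113276548 on chromosome 9), and in their ends, since PRPF4-202 begins 299 bases upstream and stops 129 bases downstream of PRPF4-201. Their coding sequences are 1566 and 1563 bases long. The stretch over the junction (chr9:113275747-113276568, plus strand, GRCh38, with the intron left out) is shown with the 3 extra bases of PRPF4-201 in capitals.

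PRPF4-201: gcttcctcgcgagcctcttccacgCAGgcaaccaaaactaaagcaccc
PRPF4-202: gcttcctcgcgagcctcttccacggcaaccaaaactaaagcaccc

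The 3 bases add 1 codon and keep the reading frame. How much of the shift rests on reads over this junction and how much on the transcript ends cannot be told apart from transcript estimates, and the shift did not pass the test of transcript usage.

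Among the U5 proteins, PRPF8 had the highest read count of the set, on the CPM scale that is not corrected for length. PRPF8, the scaffold that cradles the catalytic centre, stood at 1041 and 877 CPM in parental cells (959 ± 116, SD, n = 2) and at 902 and 775 CPM in the knockout (838.5 ± 90.2, SD, n = 2). Library 1 of each line was the higher one, and knockout library 1 lay above parental library 2. Its log2 change of -0.19 (SE 0.13; 95% interval -0.48 to 0.09) had the third smallest p of the members (edgeR adjusted p = 0.542). Without parental library 2 the change was -0.31, in a fit with a single parental library. PRPF8 lies at chr17:1650629-1684882 on the minus strand (GRCh38).

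The 2 enzymes that act beside PRPF8 were near 0. SNRNP200, the helicase that unwinds U4 from U6, stood at 386 and 348 CPM in parental cells and at 371 and 378 CPM in the knockout (log2 change 0.03). EFTUD2, the GTPase that governs it, stood at 168 and 153 CPM against 155 and 147 CPM (-0.09). Both overlapped between groups. Per length, PRPF8 was above SNRNP200 in every library, by 1.72 and 2.11 times in parental and 1.66 and 1.54 times in knockout cells.

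Of the remaining U5 proteins, TXNL4A was the one whose groups did not overlap in CPM, though they overlapped per length. TXNL4A, a small thioredoxin-fold protein, stood at 38.6 and 36.3 CPM in parental cells and at 33.7 and 32.2 CPM in the knockout (log2 change -0.18). PRPF6, the bridge between U5 and U4/U6, ranged from 46.0 to 59.5 CPM over the 4 libraries (0.08). SNRNP40, a WD-repeat protein, ranged from 84.4 to 111 CPM (-0.05). DDX23, the helicase that releases U1 from the 5′ splice site, ranged from 59.9 to 74.6 CPM (0.02). In PRPF6, SNRNP40 and DDX23 alike, parental library 2 was the lowest. CD2BP2, which binds TXNL4A in the U5 particle and leaves before the tri-snRNP forms, stood at 44.8 and 31.2 CPM against 35.0 and 32.7 CPM (-0.17). The knockout libraries of CD2BP2 lay inside the parental range.

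Of 4 proteins found in the joined tri-snRNP, 3 had a positive and 1 a negative log2 change. USP39, which keeps the tri-snRNP stable and lacks deubiquitinase activity, stood at 96.5 and 71.7 CPM in parental cells and at 93.4 and 83.1 CPM in the knockout (log2 change 0.07). The exons of USP39 overlap 203 bases of C2orf68 on the opposite strand, which held 363 to 482 reads. SART1, a scaffold of the tri-snRNP, varied more within parental cells (20.1 and 11.8 CPM) than between groups (16.0 and 14.02 CPM in the knockout, log2 change -0.10). SNRNP27 lay between 25.9 and 26.6 CPM in all 4 libraries (log2 change 0.01), but between 28.3 and 40.8 TPM per length, and with the offset for transcript length its log2 change was -0.19 (edgeR adjusted p = 0.796). Its exons overlap 237 bases of MXD1 on the same strand, so its value is uncertain. The RNA-binding protein RBM42 stood at 26.99 and 21.7 CPM against 30.8 and 24.1 CPM (0.17), with library 1 higher in each line.

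None of the proteins that join at the B complex, the stage at which the tri-snRNP meets the pre-mRNA, passed the test. Their median log2 change was -0.03, with a range from -0.19 to 0.07. PRPF38A stood at 141 and 108 CPM in parental cells and at 117 and 101 CPM in the knockout. Its log2 change of -0.19 did not pass (edgeR adjusted p = 0.632). Without parental library 2 the change was -0.37, in a fit with a single parental library. Its relative PRPF38B stood at 235 and 208 CPM against 228 and 196 CPM (log2 change -0.06), and the zinc finger protein ZMAT2 at 38.2 and 30.9 CPM against 35.7 and 33.2 CPM (-0.01). The exons of ZMAT2 overlap 152 bases of HARS2 on the same strand, which held 258 to 388 reads, so the value of ZMAT2 is uncertain. MFAP1, a partner of PRPF38A, stood at 41.5 and 40.4 CPM against 42.8 and 43.2 CPM, the knockout being higher by a log2 change of 0.07.

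**Figure D4:**
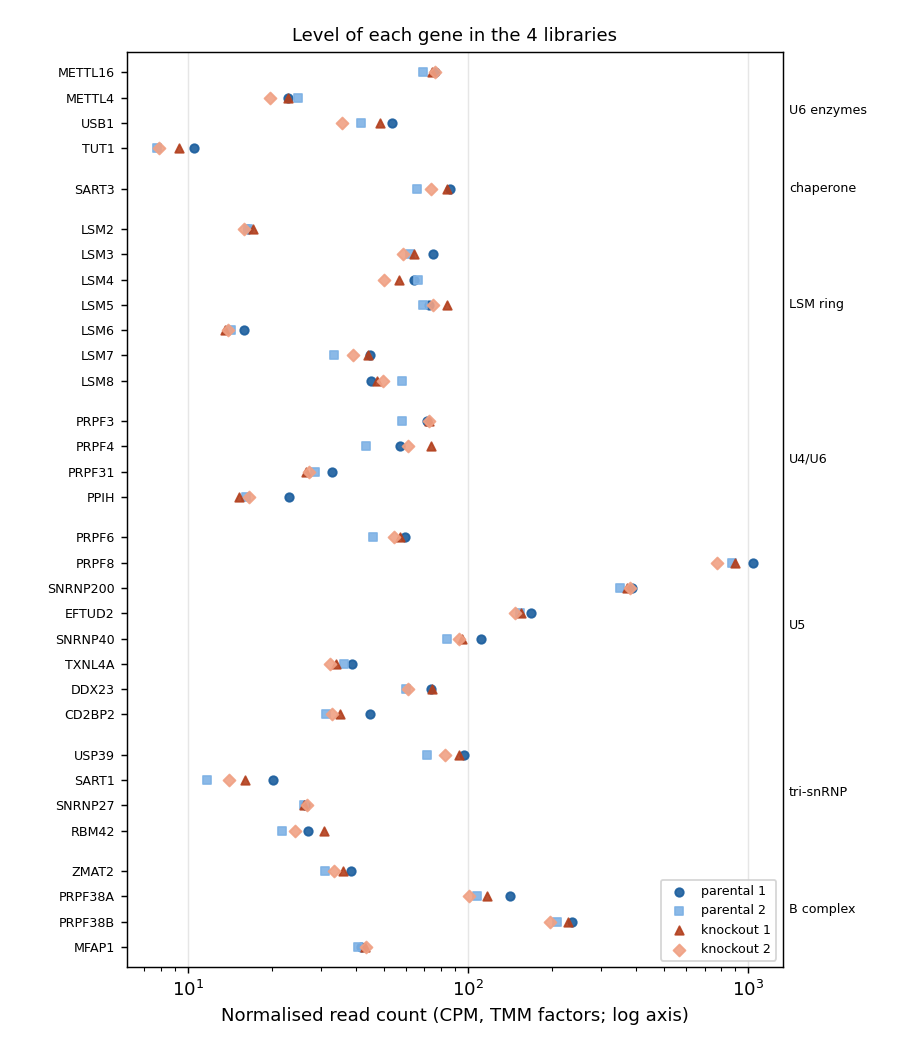
Normalised read count of each of the 32 genes in the 4 libraries (horizontal log axis, CPM with TMM factors), grouped by role. Points of the 2 lines lie together for most genes, PRPF8 is far to the right at 775 to 1041 CPM, and PRPF4 has both knockout points to the right of both parental points.

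Per length, the members spanned a wide range of levels. PRPF8 (240 to 255 TPM over the 4 libraries) and LSM7 (167 to 247 TPM) overlapped at the top, followed by EFTUD2 (165 to 186 TPM), PRPF38B (140 to 155 TPM) and SNRNP200 (121 to 156 TPM). SNRNP40, LSM4 and LSM5 overlapped with SNRNP200. At the other end TUT1 (6.58 to 7.35 TPM) lay below METTL4 (13.9 to 20.9 TPM) and CD2BP2 (19.9 to 22.2 TPM), and TUT1 did not overlap with any other member. Neighbours in the middle of the order, such as SART3, PPIH, DDX23 and TXNL4A, overlapped one another.

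The transcripts made from these genes were compared next, since the study asked about alternative splicing. In the test of transcript usage (edgeR diffSpliceDGE with a gene-level Simes p) 0 of 23 members that could be tested passed, against 65 of 9517 genes (0.683%); at an unadjusted p under 0.05 the numbers were 0 of 23 members and 439 genes (4.61%). With limma's diffSplice 0 members passed after adjustment and 3 of 23 had an unadjusted p under 0.05, against 8.43% of genes in that fit. The other 9 members (LSM2, LSM3, PRPF6, PRPF8, PPIH, DDX23, SNRNP27, CD2BP2 and MFAP1) had no second transcript with at least 10 reads and 5% of the gene's reads in 2 libraries, the filter of this test. As a description, 5 of 29 members (17.2%) with at least 100 reads in every library and 2 or more transcripts had a transcript whose share of the gene's TPM moved by at least 10 points without overlap, against 3005 of 9512 such genes (31.6%).

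Those 5 members were PRPF4, USP39, TXNL4A, LSM5 and METTL16. USP39-203 held 15.7 and 17.6% of its gene's TPM in the parental line (16.6 ± 1.34%, SD, n = 2) and 28.5 and 31.8% in the knockout (30.2 ± 2.34%, SD, n = 2), with 179 to 292 reads against 475 to 516. The last intron of USP39-203, of 163 bases, lies after its stop codon. USP39-203 and USP39-201 were not compared exon by exon or at their ends. TXNL4A-212 held 19.8 and 19.8% against 33.4 and 34.8%, while TXNL4A-208 held 27.8 and 29.3% against 19.6 and 9.84%. The TXNL4A transcripts rest on few reads, from 27.8 to 93.2 per library, and the largest, TXNL4A-201, held most reads of the gene in parental library 1 (422 of 679).

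LSM5-202 held 26.7 and 27.5% of its gene's TPM in the parental line and 15.8 and 9.75% in the knockout. By reads it was a minor form, at 9.26 and 9.99% against 5.00 and 3.0%. METTL16-206, a processed transcript annotated without a coding frame, held 16.9 and 22.2% against 9.08 and 7.07%, from 19.3 to 51.8 reads. With 5% of the gene's reads in 1 library only, METTL16-206 was left out by the filter, so its shift was not tested. Read shares moved the same way as TPM shares for each of the 6 transcripts, with the sizes differing because short transcripts weigh more in TPM.

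**Figure D5:**
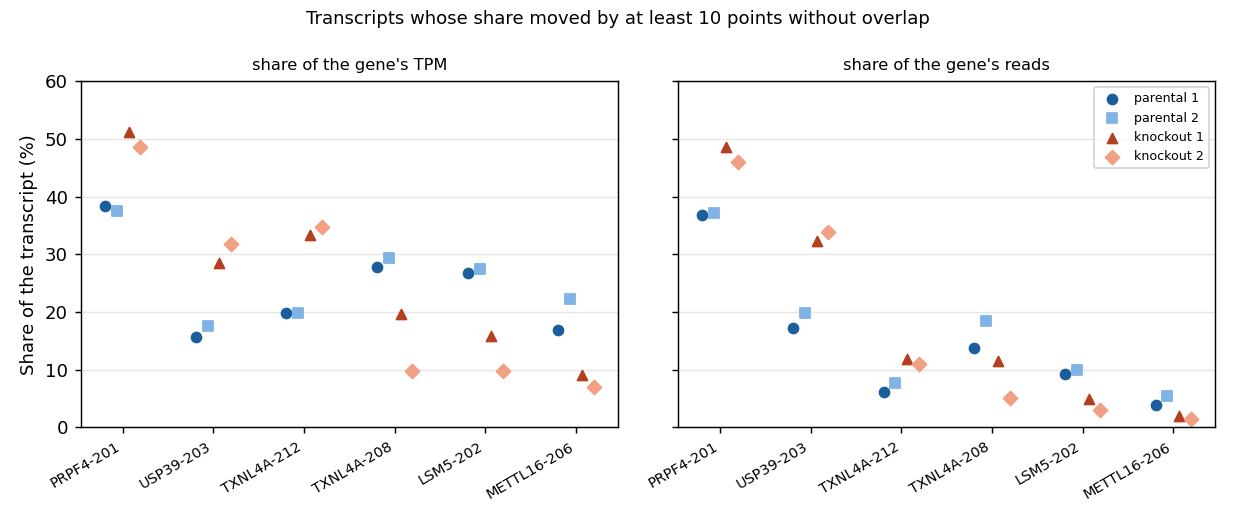
Share of 6 transcripts in their gene, as share of TPM (left) and share of estimated reads (right), in percent from 0, for the 4 libraries. PRPF4-201, USP39-203 and TXNL4A-212 are higher and TXNL4A-208, LSM5-202 and METTL16-206 lower in both knockout libraries; the usage test did not call PRPF4, USP39, TXNL4A or LSM5 and did not include METTL16-206.

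Retained-intron, nonsense-mediated-decay and processed transcripts, by GENCODE type, were counted as a single class. This class held 24.98 and 26.7% of the TPM pooled over the 32 members in parental cells (25.8 ± 1.23%, SD, n = 2). In the knockout it held 23.1 and 26.2% (24.7 ± 2.24%, SD, n = 2). The groups overlapped, and the difference of -1.19 points gave p = 0.667 (exact permutation, two-sided; the smallest value 2 against 2 libraries allow is 0.333). The share was higher in the knockout for 13 members, lower for 16 and at 0 in 3. By estimated reads, in which short transcripts weigh less, the pooled share was 10.3 and 10.8% against 9.63 and 10.7%, higher for 16 members and lower for 13. By TPM it was highest in SART1, at 80.4 and 72.4% of TPM in parental cells against 70.8 and 79.1% in the knockout, followed by EFTUD2, at 61.0 and 64.9% against 60.6 and 66.3%. These shares overlapped between the lines, and in SART1 the coding transcript SART1-201 still held 79.1 to 87.2% of the reads. PRPF38B had 49.7 and 56.8% against 46.9 and 46.1%. USB1 had 9.00 and 17.7% against 26.1 and 19.7%, and METTL16 35.9 and 44.0% against 31.7 and 31.0%. In knockout library 1, USB1-206 held 15.4% of the TPM of USB1, from 23.9 reads (2.88% of the gene's reads). It had no read in the other libraries. By TPM the lines did not overlap for 3 members higher and 6 lower in the knockout, PRPF38B, USB1 and METTL16 among them. By estimated reads these numbers were 1 and 5.

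Other factors that handle these particles did not pass the test either. None of 7 further U6 partners, 7 other LSM proteins and partners, 7 tested Sm ring genes, 19 snRNP assembly factors, 8 B complex partners, 22 U1 and U2 proteins and 22 catalytic-stage proteins was called (edgeR adjusted p under 0.05); limma voom called none either, and DESeq2 called LARP7 alone. Their median log2 changes were 0.11, -0.10, -0.01, 0.11, 0.08, -0.04 and 0.14 in that order, beside 0.002 for all genes. At an unadjusted p under 0.05 the numbers of genes were 1 (LARP7), 0, 0, 0, 1, 3 and 0, where 14.3% of all genes had such a p. The smallest p of the U1 and U2 list belonged to SF3A2, a subunit of SF3a, at 26.7 and 27.2 CPM in parental cells against 18.5 and 15.6 CPM in the knockout (log2 change -0.66, edgeR adjusted p = 0.145). In the B complex list it belonged to WBP4, a WW-domain protein, at 11.3 and 9.84 CPM against 13.1 and 18.5 CPM (0.58, edgeR adjusted p = 0.312).

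The medians of the chromosome neighbours are given for 5 members, chosen after these values were seen. The 40 expressed protein-coding genes nearest to LSM8 on chromosome 7 had a median log2 change of 0.40, with 4 of 40 below 0, while LSM8 was at -0.09. Around LSM3 on chromosome 3 the median was -0.34, with 31 of 40 below 0, and LSM3 was at -0.16. For PRPF4 the neighbours' median was 0.03 beside 0.42 for the gene, and for LSM4 it was -0.06 beside -0.29. Around LSM6 on chromosome 4 the median was 0.19, with 6 of 40 below 0, beside -0.14 for the gene.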

How the data were processed

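Total RNA libraries of 2 parental and 2 LARP7 knockout HEK293 replicates were analysed. Per the labels' protocols, TRIzol was used for extraction and the Ovation SoLo system for library preparation. Each deposited table lists transcripts with the authors' estimated counts (fractional read assignments), TPM and effective length, per the file headers. The submitters' processing notes name Salmon 1.6, STAR 2.5.3a, cutadapt 1.6, Picard, edgeR 3.24.3, SAMtools 1.3.1, R (3.3.3, 3.5.1) and hg38. Not given in the sources used here are their order, the strandedness and the annotation release. The effective length, deposited by the authors, was used only for a length offset and to compare fragment lengths. Salmon divides reads among similar transcripts, an error the tests do not see, and intervals cover only the spread the model estimates.

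The 32 members and the other gene lists were chosen with earlier results of these data known. Transcripts were joined to GENCODE v29 (GRCh38): 197318 of 198002 matched, and the 684 others held 0.0631 to 0.0711% of reads. Estimated counts were summed per gene, rounded, filtered with filterByExpr, scaled with TMM and tested over all 18484 genes with the edgeR 4.0.16 quasi-likelihood test in R 4.3.3 (Benjamini-Hochberg adjusted p under 0.05). The standard error is the log2 change divided by the root of F. Transcript usage was tested with diffSpliceDGE over transcripts with at least 10 reads and 5% of their gene's reads in 2 libraries. TPM was rescaled over protein-coding genes, because very short RNAs take a large part of it. Shares of transcripts came from TPM. Alternatives used DESeq2 1.42.0, limma 3.58.1, other scalings, filters and offsets, leaving out each library, and a replicate block. The steps were tested on simulated data. All members are given with their level; full statistics go to those past the threshold, else to the 4 smallest p and to non-overlapping members with a log2 change of at least 0.4, which named PRPF4, LSM4, PRPF8 and PPIH. Transcripts were named where the share of TPM moved by at least 10 points without overlap and the gene had at least 100 reads in every library. In each other list the gene with the smallest p could be named. PRPF38A, SART1, EFTUD2, PRPF38B, USB1 and METTL16 are given extra values chosen after these were seen.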

Additional observations from a re-analysis of the deposited data

How the results depend on the processing

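With 2 libraries a group, 12 of 32 members kept their sign in all of 13 alternatives. PRPF4, PRPF8 and PRPF38A were past the threshold in at least 1 alternative, and the other members in none. For PRPF8 and PRPF38A this was a fit with a single parental library. The 0 members called stayed at 0 with DESeq2, limma voom, upper-quartile factors, library size alone, no filter, at least 50 reads in 2 libraries, an offset for transcript length and protein-coding genes only. Leaving out each library in turn left a single library in 1 line. In these fits the members' median log2 change ran from -0.14 (without parental library 2) to 0.088 (without parental library 1), beside -0.06. The number of all genes called ran from 96 to 2878 over these fits, beside 154; it was 459 with DESeq2, 831 without a filter on low counts and 90 with the length offset. For transcript usage, leaving out each library in turn gave 0 to 81 genes called beside 65, a share minimum of 10% gave 21, and limma gave 0 (802 genes at an unadjusted p under 0.05); 0 members were called in each. In fits that lack 1 parental library, only the knockout pair informs the spread, and the lone library is assumed to vary like that pair.

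The replicate numbers are shared by the lines, but nothing says what they pair. Deviations of the same-numbered libraries correlated at 0.133 over 18484 genes. With a replicate block, 1656 genes and 1 member were called: PRPF4, with a log2 change of 0.43 (edgeR adjusted p = 0.0148). For usage, the replicate block left 0 genes called by diffSpliceDGE, with 351 genes at an unadjusted p under 0.05.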
